A study of Homo sapiens with 32 samples.

Results

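The genes described here build and control mitosis: the engine that starts division, the spindle, the kinetochores that tie chromosomes to it, the cut between the daughter cells, and the factors that switch these genes on. The list held 50 genes, chosen by name with earlier results of these data known. All 50 were found among the 60728 genes of the count table. They comprised 8 genes for CDK1 and its regulators, 8 other mitotic kinases, 10 kinetochore and centromere proteins, 3 genes around the anaphase-promoting complex and securin, 7 kinesin motors, 6 spindle proteins, 4 cytokinesis proteins, 2 proteins of mitotic chromosomes and 2 transcription factors. All 50 passed the filter on low counts in each cell line, for which their levels in undrugged cells were enough.

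RNA sequencing was done on A549, a human lung adenocarcinoma line, and SK-MEL-147, a human melanoma line, in 8 groups. The study's design text names SK-Mel-103 as the melanoma line given INK128, while the labels of the samples give SK-MEL-147 throughout and were followed; were the former right, each INK128 comparison of the melanoma samples would also compare lines. In each line, untreated controls stood beside cells given doxorubicin (a DNA-damaging topoisomerase poison), palbociclib (an inhibitor of CDK4 and CDK6) or INK128 (an inhibitor of the mTOR kinase). Per the labels, doxorubicin and palbociclib were used to induce senescence and INK128 a diapause-like state, a slowed and reversible condition named after the paused embryo. Both lines received doxorubicin at 100.0 nM. Palbociclib was given at 5 uM to A549 and 1 uM to SK-MEL-147, and INK128 at 200.0 nM to A549 and 100.0 nM to SK-MEL-147, so a difference between lines for these drugs is also a difference of dose. Doxorubicin and palbociclib were withdrawn after 72 h, INK128 was renewed at each change of medium, every 3 days, and all cells were collected on day 7. The inducers had therefore been absent for days at collection, while INK128 was still present. The labels name no genetic change in either line, and each tissue is represented by a single cancer line.

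Each group had 4 libraries, 32 in all, with 28150560 to 33331334 reads assigned to genes for A549 and from 17929732 to 32407057 for SK-MEL-147. A pair of libraries of each A549 group carried replicate number 2 and their counts were summed, which gave n = 3 in A549 and n = 4 in SK-MEL-147. In every A549 group libraries 2-2 and 3 were the closest pair (SD of the log2 ratio over genes 0.318 to 0.346, against 0.566 to 0.693 for 2 and 2-2), so what the shared number stands for is uncertain. The labels do not say that replicates came from separate cultures, so the p-values measure the spread between these samples, which may be technical. That spread was estimated over all 4 groups of a line, or all 8 groups for line differences. Groups outside a comparison therefore also enter its p-values and standard errors. Some libraries stood apart. Palbociclib replicate 2 of SK-MEL-147 had the highest level in its group for 50 of the 50 genes, doxorubicin replicate 1 of A549 the lowest for 47, and control replicate 1 of SK-MEL-147 the lowest for 49. A set of 14 genes above 50 CPM in every SK-MEL-147 library and with a median under 0.05 CPM in A549 added up to 67.4, 61.0 and 77.7 CPM in A549 replicate 1 with doxorubicin, palbociclib and INK128, which is 1.99%, 1.80% and 2.29% of their SK-MEL-147 level. In A549 control replicate 1 they reached 0.135%, and in the 12 other A549 libraries 0.00197% to 0.016%. The melanocyte regulator SOX10 is among these 14 genes. The counts of genes called, the median log2 fold changes and the summed levels of the 50 genes are therefore also given without replicate 1 of every A549 group and without palbociclib replicate 2 of SK-MEL-147. The values of roles, other lists and regulators include these samples. So do the order of group means and the share of control kept by each gene.

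As background, a cell enters mitosis when CDK1, bound to cyclin A or cyclin B, is freed of inhibitory phosphates by CDC25 phosphatases. Aurora and Polo kinases and kinesin motors then build the spindle, and the checkpoint kinases hold anaphase until every kinetochore is attached. The anaphase-promoting complex with CDC20 destroys cyclin B and securin, after which the chromosomes part and the cell divides. Most of these genes are transcribed mainly from late S phase to mitosis. In resting cells the DREAM complex (RBL1 or RBL2, E2F4 and the MuvB core) sits at their start sites and keeps them silent, largely through a short element called the CHR. In dividing cells the same MuvB core carries MYBL2 and then FOXM1 and activates them, together with NF-Y, which binds CCAAT boxes. The CDK inhibitor CDKN1A and inhibition of CDK4 and CDK6 both favour DREAM.

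The CHR and CCAAT letters can be read in the promoters themselves. The stretches below run from 120 bases before to 30 bases after the start site, 5′ to 3′ on the gene's own strand, from RefSeq on GRCh38.p14. CCNB1, CCNB2, CDC20 and PLK1 are shown as genes with both elements or the CHR variant, TOP2A because it has CCAAT boxes here and its CHR letters lie further upstream, CDC25C because these elements are missing from the stretch, and CDC25B and IQGAP3 because CDC25B was among the 3 smallest changes with every drug and IQGAP3 moved least with INK128. Capitals mark the CHR (TTTGAA or its reverse complement TTCAAA), the CHR variant TTTAAA, which reads the same on both strands, and CCAAT or its reverse complement ATTGG.
CCNB1: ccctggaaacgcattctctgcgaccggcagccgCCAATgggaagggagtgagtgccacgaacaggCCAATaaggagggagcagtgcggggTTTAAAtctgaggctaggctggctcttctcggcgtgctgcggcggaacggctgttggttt
CCNB2: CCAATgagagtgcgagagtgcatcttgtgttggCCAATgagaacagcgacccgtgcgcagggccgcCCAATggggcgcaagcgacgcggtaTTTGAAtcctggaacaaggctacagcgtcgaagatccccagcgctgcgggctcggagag
CDC20: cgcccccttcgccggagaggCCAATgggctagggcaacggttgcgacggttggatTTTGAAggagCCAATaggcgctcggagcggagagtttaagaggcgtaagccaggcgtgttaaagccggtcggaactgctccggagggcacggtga
PLK1: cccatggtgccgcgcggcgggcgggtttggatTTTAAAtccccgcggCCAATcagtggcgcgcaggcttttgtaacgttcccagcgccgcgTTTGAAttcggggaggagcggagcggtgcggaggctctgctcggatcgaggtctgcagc
CDC25C: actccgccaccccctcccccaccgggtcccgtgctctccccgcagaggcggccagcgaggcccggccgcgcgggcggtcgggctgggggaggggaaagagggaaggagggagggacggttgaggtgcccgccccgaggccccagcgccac
TOP2A: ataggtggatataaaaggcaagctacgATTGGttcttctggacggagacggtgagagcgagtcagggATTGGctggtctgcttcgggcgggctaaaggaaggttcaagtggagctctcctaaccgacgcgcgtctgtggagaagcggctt
IQGAP3: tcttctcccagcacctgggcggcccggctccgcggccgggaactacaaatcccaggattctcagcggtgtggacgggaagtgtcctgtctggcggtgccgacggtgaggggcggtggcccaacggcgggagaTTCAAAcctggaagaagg
CDC25B: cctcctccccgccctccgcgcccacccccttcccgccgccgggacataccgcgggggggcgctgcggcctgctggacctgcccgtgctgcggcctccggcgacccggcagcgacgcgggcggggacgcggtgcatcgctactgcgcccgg

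These 150-base stretches lie at chr5:69167030-69167179 on the plus strand for CCNB1, chr15:59105026-59105175 on the plus strand for CCNB2, chr1:43358861-43359010 on the plus strand for CDC20 and chr16:23678769-23678918 on the plus strand for PLK1. They lie at chr5:138338326-138338475 on the minus strand for CDC25C, chr17:40417867-40418016 on the minus strand for TOP2A, chr1:156572536-156572685 on the minus strand for IQGAP3 and chr20:3786831-3786980 on the plus strand for CDC25B. Each stretch spans the annotated start of its gene, so its last 30 bases are transcribed. CCNB2 and PLK1 each carried TTTGAA from 29 to 24 bases before the start, and CCNB1 carried the variant TTTAAA from 30 to 25 bases before it. CCNB2 had 3 CCAAT boxes in the stretch, spaced at regular intervals upstream of its CHR, and CCNB1 had 2. IQGAP3 had no CCAAT box and a single TTCAAA, which lay after the start rather than before it. Neither CDC25C nor CDC25B held any of these letters in the printed stretch, and CDC25B carried the E2F letters TTCCCGC from 91 to 85 bases before its start. A single annotated start was read per gene, and that of CDC25C is the outermost annotated end of the gene. Letters at any other start, of CDC25C or of another gene, were not looked for.

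Over the whole window of 300 bases, from 250 before to 50 after the start, a promoter was found for 41 of the 50 genes. PKMYT1, AURKA, TTK, BIRC5, UBE2C, TPX2, TROAP, PIMREG and FOXM1 are the other 9. The CHR letters, on either strand, were in 29 of the 41 promoters (70.7%), against 15.4% of all 27305 promoters of the table. Within 50 bases of the start they were in 23 of 41 (56.1%), against 4.67% of all. CCAAT or ATTGG was in 28 of 41 (68.3%), against 35.7%, and 17 of 41 (41.5%) had 2 or more, against 11.3%. The CHR and CCAAT stood together in 21 of 41 (51.2%), against 6.08%. E2F letters (TTCCCGC or TTGGCGC on either strand) were in 9 of 41 (22%), against 9.33%. Among the 13071 promoters of genes tested here, the shares were 10.5% for the CHR, 36.4% for CCAAT and 13.6% for E2F letters. MYBL2 was the only promoter of the 41 with none of these elements, a state shared by 44.4% of all promoters. In 3 places, matches of different motifs shared a base. A match describes letters and is not evidence that a factor binds there. Genes with and without the CHR letters had these median log2 fold changes against control: -3.39 for 29 genes and -3.26 for 12 with doxorubicin in A549, and -6.45 and -6.93 with doxorubicin in SK-MEL-147. The 12 include CCNB1, CENPE, PTTG1, KIF20A and KIF2C, which carry the variant TTTAAA, so they are not all free of the element.

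**Figure D1:**
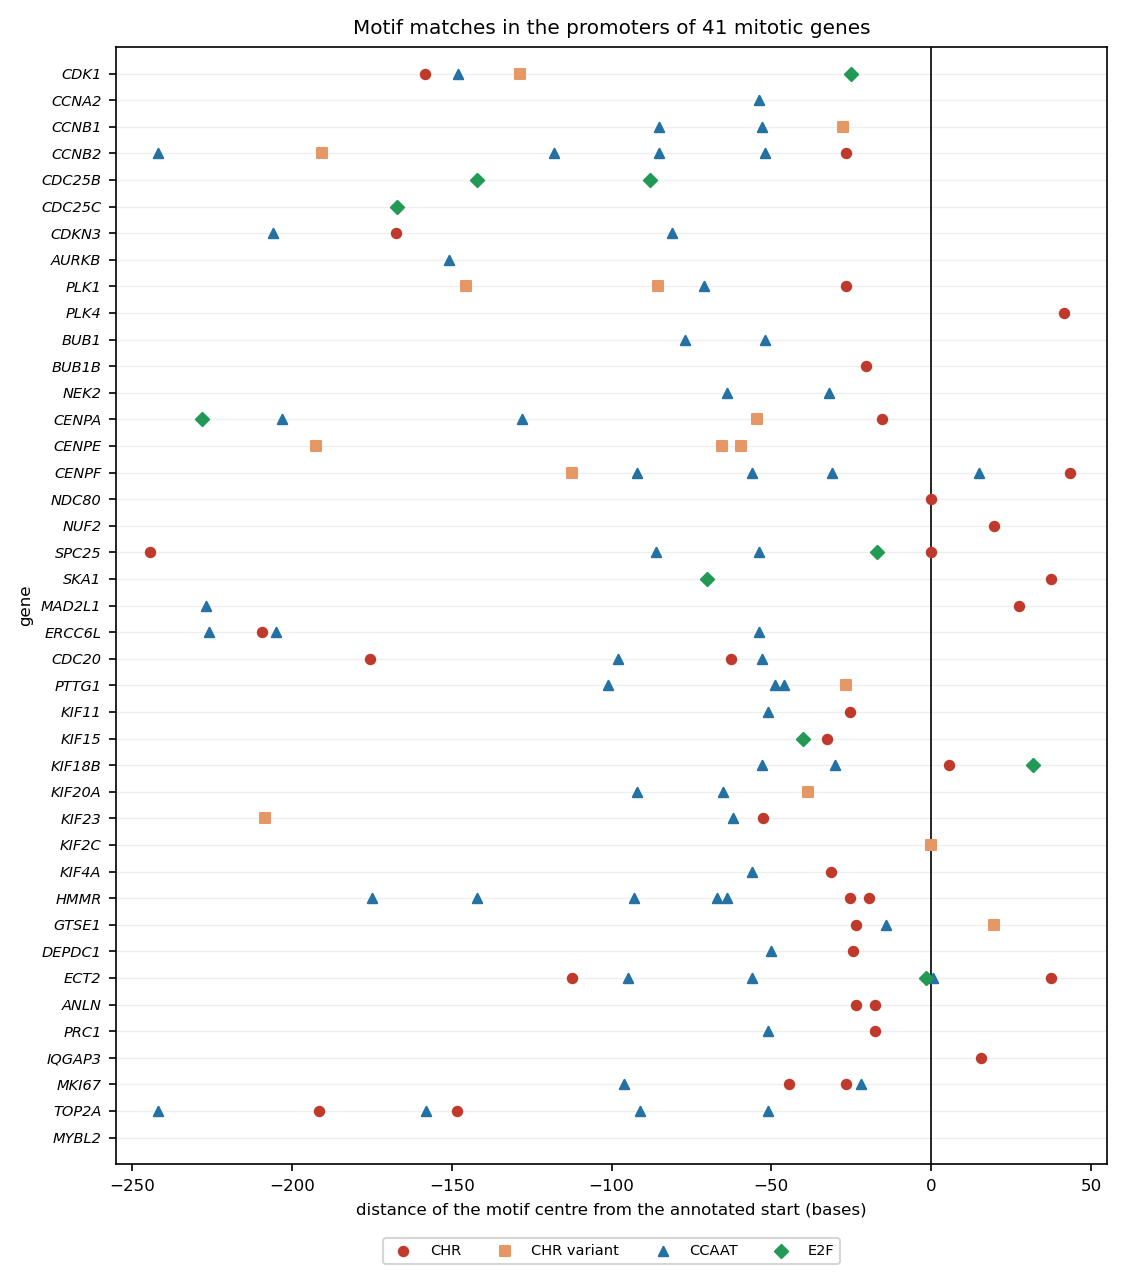
Position of each motif match in 41 member promoters, 1 row per gene, with distance from the start site in bases on the horizontal axis (negative is upstream) and the colour giving the motif. CHR matches gather within 50 bases of the start, in 23 of 41 promoters, and most CCAAT matches lie upstream of it.

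Summed over the 50 genes, the mitotic transcripts were lower in all 6 drugged groups than in control. The A549 controls held 6373, 6308 and 6040.0 CPM (a count scaled to a common library total), against 545, 859 and 1137 with doxorubicin, 652, 609 and 603 with palbociclib and 2202, 2498 and 2070.0 with INK128. The SK-MEL-147 controls held 5211, 6609, 7830.0 and 7923 CPM, against 170.2, 193, 175 and 169.8 with doxorubicin, 356, 915, 292 and 195 with palbociclib and 2322, 1760.0, 1957 and 2010.0 with INK128. As a share of the control mean, doxorubicin left 13.6% in A549 and 2.57% in SK-MEL-147, palbociclib left 9.96% and 6.38%, and INK128 left 36.2% and 29.2%. Without replicate 2, palbociclib left 4.08% in SK-MEL-147, and without replicate 1 of every group the A549 shares were 16.2%, 9.82% and 37.0% for doxorubicin, palbociclib and INK128. In both lines the drugged groups lay below every control and INK128 lay above both inducers. Doxorubicin and palbociclib overlapped in A549, while in SK-MEL-147 every palbociclib library was above every doxorubicin library. The spread was wide in 2 groups, A549 doxorubicin (847 ± 296 CPM, SD, n = 3) and SK-MEL-147 palbociclib (440 ± 324 CPM, SD, n = 4), and narrow in SK-MEL-147 doxorubicin (177 ± 10.9 CPM, SD, n = 4). In bulk RNA, fewer dividing cells and less RNA of these genes per cell cannot be told apart.

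**Figure D2:**
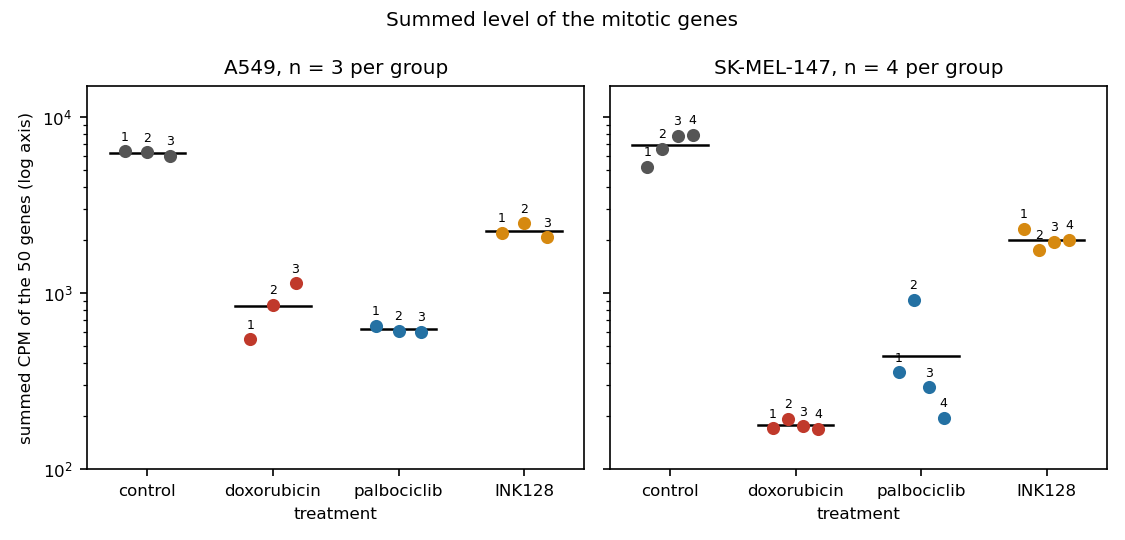
Summed CPM of the 50 genes in each sample (log axis), by drug and line; numbers are replicates and bars are group means. Controls sit at 5211 to 7923 CPM, INK128 at 1760 to 2498 CPM and the inducers between 169.8 and 1137 CPM, with SK-MEL-147 palbociclib replicate 2 at 915 CPM above its group.

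Gene by gene, the order of the group means was close to uniform. The INK128 mean lay between the control and both inducers for 49 genes in A549 and 50 in SK-MEL-147. The order of the inducers was opposite in the lines: the palbociclib mean was below the doxorubicin mean for 49 of 50 genes in A549, and the doxorubicin mean was below the palbociclib mean for 50 of 50 in SK-MEL-147. Palbociclib replicate 2 was the highest of its SK-MEL-147 group for 50 of 50 genes and so raised every palbociclib mean there. The sample ranges of the inducers were apart for 3 of 50 genes in A549 and 11 of 50 in SK-MEL-147. The median gene kept 9.37% of its control level with doxorubicin, 5.36% after palbociclib and 34.4% under INK128 in A549. In SK-MEL-147 it kept 1.04%, 4.64% and 26.8%. Under doxorubicin, 25 genes in SK-MEL-147 kept less than 1% of their control level and 21 were under 1 CPM in every sample, while no gene in A549 kept less than 1%. Per kilobase of annotated exon, TOP2A (132 CPM per kb) and CCNB1 (112) were the most abundant of the 50 in A549 controls, and UBE2C (125) and TPX2 (117) in SK-MEL-147 controls. The length was that of all annotated exons of a gene merged, which can exceed that of its transcripts.

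**Figure D3:**
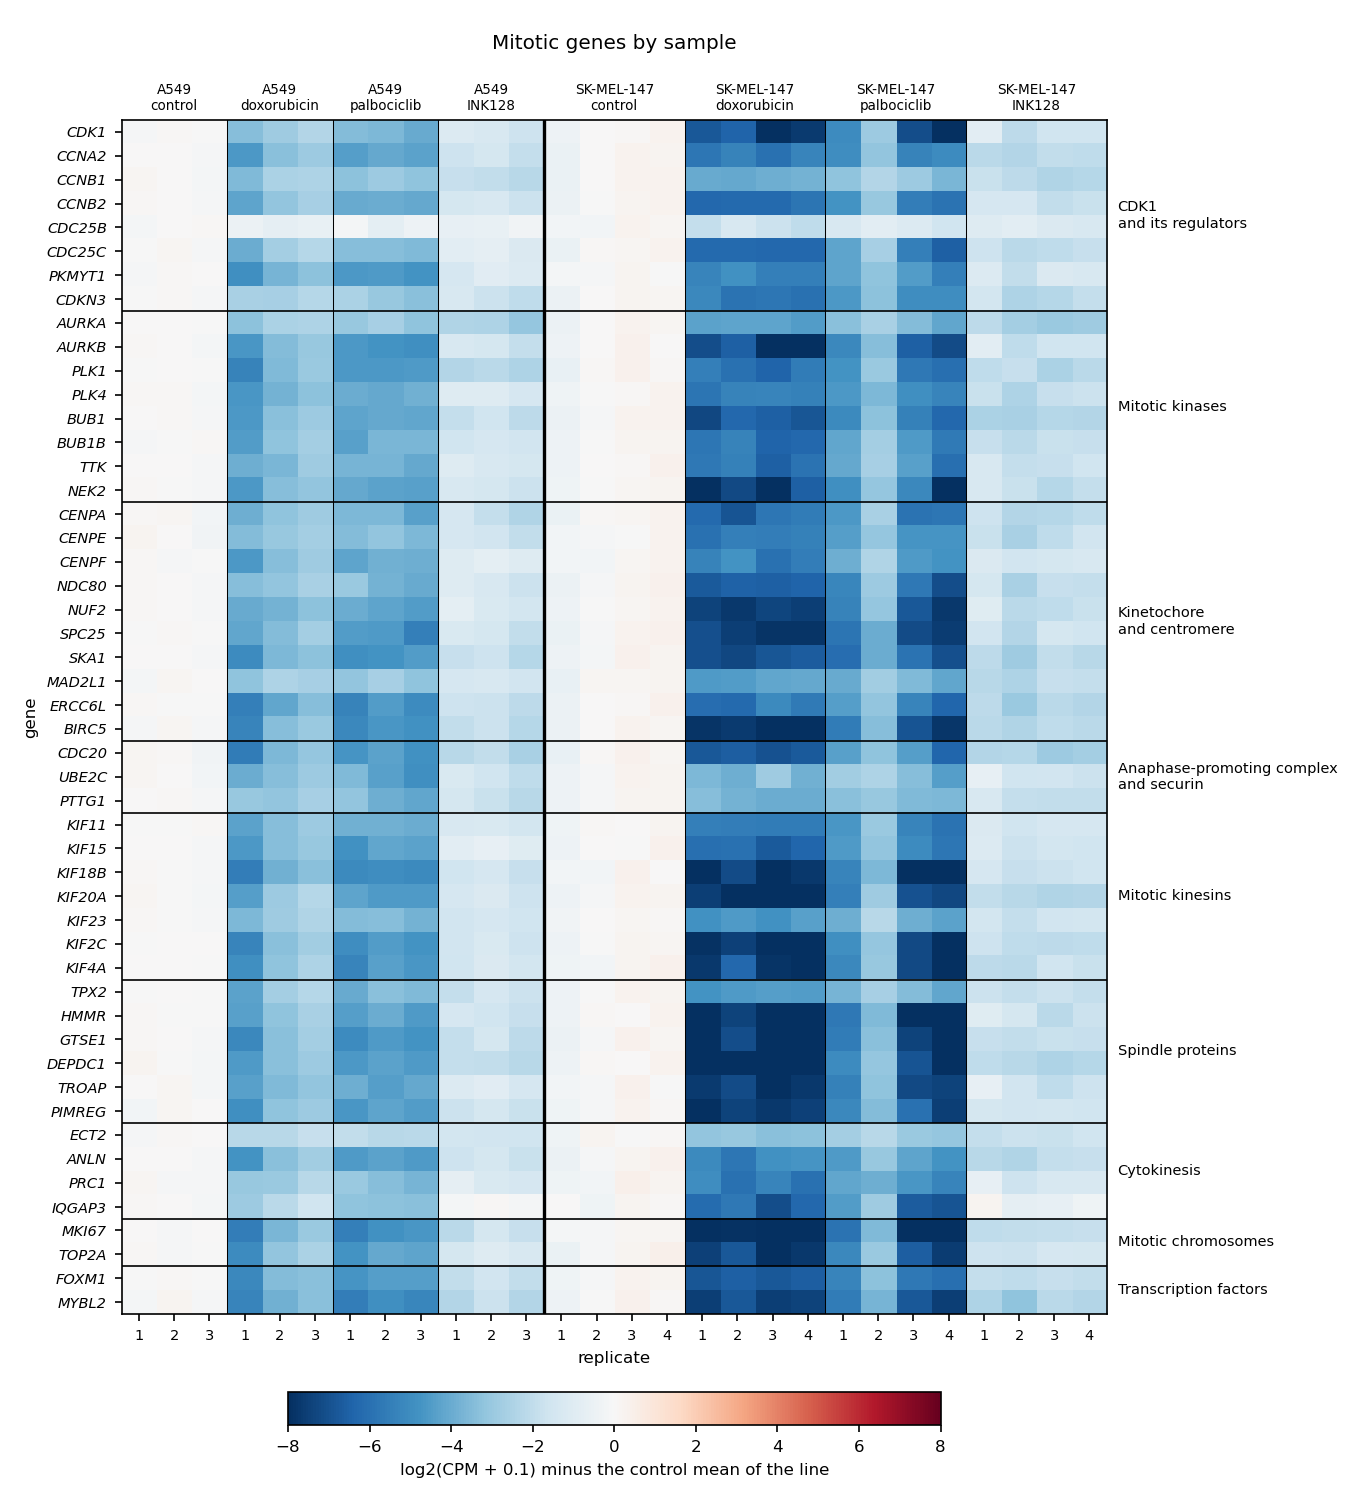
Level of each of the 50 genes in each sample as the difference in log2 CPM from the mean of its line's controls, with genes in rows by role and samples in columns by group. The SK-MEL-147 doxorubicin columns are the darkest, with a median gene at 1.04% of control, and SK-MEL-147 palbociclib replicate 2 is lighter than its neighbours; the colours saturate at the ends of the bar.

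Tested against control, all 50 genes fell with doxorubicin in A549 and all 50 in SK-MEL-147 (edgeR quasi-likelihood test, Benjamini-Hochberg adjusted p under 0.05 over all genes tested). In A549, 20.9% of the 19550 genes tested were called lower with doxorubicin, and in SK-MEL-147 28.9% of the 18516 genes tested. The median log2 fold change of the members was -3.42 in A549 and -6.59 in SK-MEL-147, while the median over all genes was 0.004 and 0.019. Palbociclib lowered 49 of 50 in A549 (21.1% of all genes, median -4.23) and 50 of 50 in SK-MEL-147 (28.7%, median -4.51). INK128 lowered 49 of 50 in A549 (19.7%, median -1.54) and 47 of 50 in SK-MEL-147 (28.9%, median -1.90). No member was called higher in any of these 6 comparisons, where the share of all genes called higher was 22.4% with doxorubicin, 22.2% after palbociclib and 20.5% under INK128 for A549, against 30.9%, 29.7% and 29.8% for SK-MEL-147. Without replicate 1 of every A549 group, 50, 50 and 49 members were lower with the 3 drugs in that order, with medians of -3.05, -4.14 and -1.52. Without palbociclib replicate 2 in SK-MEL-147, 50 were lower with palbociclib and the median was -5.44. The INK128 calls of CDC25B (5), CDC25C (7), CENPF (6) and KIF15 (6) in A549 were lost under the given number of 16 alternatives, as were those of HMMR (7 of 15) and TROAP (6 of 14) in SK-MEL-147.

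The genes that fell most and least were not the same in every comparison. With doxorubicin in A549, ERCC6L (-4.17), KIF18B (-4.02) and MYBL2 (-3.99) had the largest log2 fold changes, and CDC25B (-0.60), ECT2 (-2.10) and IQGAP3 (-2.16) the smallest. With palbociclib in A549, the largest were MYBL2 (-5.24), KIF18B (-5.13) and ERCC6L (-4.96) and the smallest CDC25B (-0.43), ECT2 (-2.10) and CDKN3 (-2.96). With INK128 in A549, the largest were AURKA (-2.65), PLK1 (-2.33) and CDC20 (-2.25) and the smallest IQGAP3 (-0.05), CDC25B (-0.49) and KIF15 (-0.84). In SK-MEL-147, doxorubicin moved most MKI67 (-9.51), HMMR (-9.15) and DEPDC1 (-9.12) and least CDC25B (-1.73), ECT2 (-3.21) and UBE2C (-3.53). There, palbociclib moved most SPC25 (-5.88), SKA1 (-5.56) and HMMR (-5.40) and least CDC25B (-1.21), ECT2 (-2.72) and CCNB1 (-2.99). Without palbociclib replicate 2, MKI67 (-7.48), SPC25 (-7.26) and HMMR (-7.19) had the largest values, and the smallest stayed with CDC25B (-1.31), ECT2 (-2.91) and CCNB1 (-3.24). INK128 gave its largest values there for AURKA (-2.63), CDC20 (-2.59) and MYBL2 (-2.52) and its smallest for IQGAP3 (-0.33), CDC25B (-1.08) and PRC1 (-1.24). CDC25B was among the 3 smallest changes in 6 of these 6 comparisons.

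**Figure D4:**
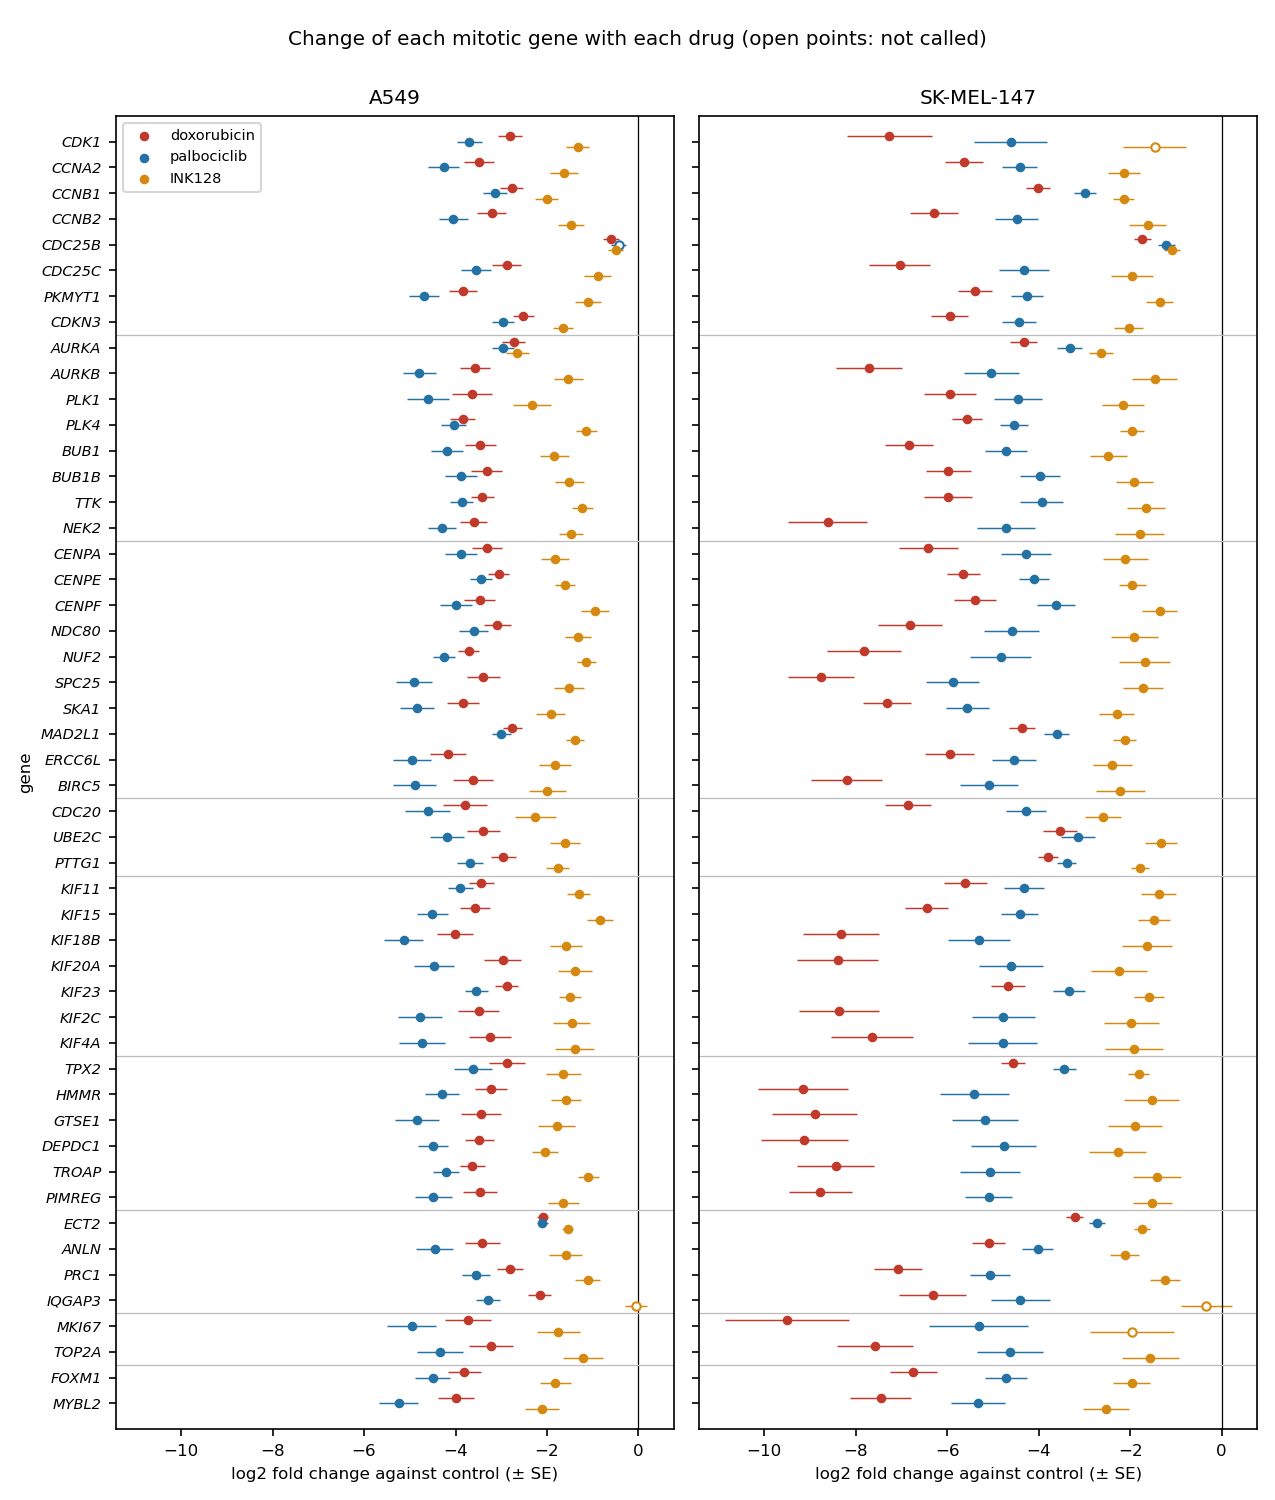
Log2 fold change of each of the 50 genes against its line's control, with the standard error as a bar, for the 3 drugs in A549 and SK-MEL-147; open symbols did not pass the adjusted threshold. The INK128 medians are -1.54 and -1.90, while the doxorubicin points reach -4.17 in A549 and -9.51 in SK-MEL-147.

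The genes of CDK1 and its regulators control entry into mitosis. CDK1 is the kinase that drives it. In A549, CDK1 stood at 141, 158 and 145 CPM in the controls, 13.8, 20.2 and 29.6 with doxorubicin, 13.5, 12 and 8.83 with palbociclib, and 70.0, 60.8 and 46.6 with INK128. In SK-MEL-147, CDK1 was at 152, 209, 212 and 242 CPM in the controls, 1.69, 2.26, 0.469 and 0.908 with doxorubicin, 5.92, 26.9, 1.35 and 0.469 with palbociclib, and 113, 48.0, 67.8 and 66.2 with INK128. No groups of A549 overlapped, and in SK-MEL-147 only the inducers did. Cyclin A2, CCNA2, partners CDK1 and CDK2 from S phase on. A549 libraries held CCNA2 at 94.5, 96.2 and 89.1 CPM without drug, 3.74, 9.05 and 12.1 after doxorubicin, 4.32, 5.45 and 4.75 after palbociclib, and 30, 35.0 and 25.3 under INK128. For SK-MEL-147, CCNA2 values were 108, 155, 184 and 179 CPM without drug, 2.65, 3.67, 2.38 and 3.83 after doxorubicin, 4.88, 16.8, 3.66 and 4.63 after palbociclib, and 34.8, 29.9, 39.6 and 37.8 under INK128. Palbociclib replicate 2 was the highest of its group in SK-MEL-147, and the inducers overlapped in both lines. CCNB1 encodes cyclin B1, the main partner of CDK1 in mitosis. CCNB1 read 319, 289 and 255 CPM in A549 controls, 24.3, 49.1 and 52.5 after doxorubicin, 30, 37.8 and 30.3 after palbociclib, and 79.5, 73.2 and 62.1 under INK128. SK-MEL-147 gave CCNB1 at 153, 224, 265 and 267 CPM in controls, 13.3, 12.7, 14.5 and 15.9 after doxorubicin, 23.4, 43.4, 30 and 17.8 after palbociclib, and 65.3, 52.7, 42.5 and 45.4 under INK128. In A549 the inducers overlapped, while in SK-MEL-147 they were apart and palbociclib replicate 2 reached the range of INK128. CCNB2 encodes cyclin B2. In A549, CCNB2 stood at 97.1, 95.5 and 86.3 CPM in the controls, 4.83, 10.4 and 14.8 with doxorubicin, 5.66, 5.80 and 5.43 with palbociclib, and 34.5, 38.5 and 27.9 with INK128. In SK-MEL-147, CCNB2 was at 53.2, 72.7, 88.3 and 91.9 CPM in the controls, 0.882, 0.919, 0.904 and 1.18 with doxorubicin, 2.62, 9.09, 1.54 and 1.13 with palbociclib, and 30.1, 29, 19.0 and 22.1 with INK128. All drugged samples were below all controls, and doxorubicin in SK-MEL-147 left about 1 CPM. CDC25B, a phosphatase that activates CDK1 at the centrosome, behaved otherwise. A549 libraries held CDC25B at 264, 303 and 316 CPM without drug, 214, 175 and 194 after doxorubicin, 265, 173 and 218 after palbociclib, and 187, 196 and 244 under INK128. For SK-MEL-147, CDC25B values were 81.1, 82.7, 114 and 105 CPM without drug, 25.4, 38.1, 29 and 22.7 after doxorubicin, 38.1, 52.0, 44.8 and 31.3 after palbociclib, and 46.2, 52.5, 43.2 and 38.8 under INK128. In A549 the palbociclib range reached the control range and all drugged groups overlapped, while in SK-MEL-147 every drugged sample was below the controls.

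CDK1 fell by 2.81 ± 0.27 on the log2 scale (adjusted p = 1.49e-05) with doxorubicin in A549 and fell by 7.26 ± 0.92 in SK-MEL-147. With INK128 it fell by 1.33 ± 0.25 on the log2 scale (adjusted p = 0.00196) in A549, but the SK-MEL-147 value, -1.46 ± 0.68 (adjusted p = 0.0751), did not pass the threshold; it passed under 4 of 15 alternatives, the replicate number as a block among them (adjusted p = 0.0459). CCNA2 fell by 5.64 ± 0.42 on the log2 scale (adjusted p = 1.11e-08) with doxorubicin in SK-MEL-147, and CCNB2 fell by 6.29 ± 0.52 on the log2 scale (adjusted p = 3.92e-08). CDC25B fell by 0.60 ± 0.17 on the log2 scale (adjusted p = 0.0129) with doxorubicin in A549, and fell by 0.49 ± 0.17 on the log2 scale (adjusted p = 0.0343) with INK128. With palbociclib there it was not called, at -0.43 ± 0.17 (adjusted p = 0.0565), and was called with the replicate number as a block, at -0.44 (adjusted p = 0.0249). In SK-MEL-147 the same gene fell by 1.73 ± 0.18 on the log2 scale (adjusted p = 4.43e-07) with doxorubicin. The log2 fold changes of CDC25C, another phosphatase that activates CDK1, were -2.88, -3.55 and -0.89 (A549) and -7.03, -4.32 and -1.96 (SK-MEL-147) for doxorubicin, palbociclib and INK128 in that order. For PKMYT1, the membrane kinase that inhibits CDK1, they were -3.84, -4.69 and -1.10 (A549) and -5.39, -4.26 and -1.35 (SK-MEL-147), and for CDKN3, a phosphatase of CDK1 and CDK2, -2.51, -2.96 and -1.65 (A549) and -5.95, -4.43 and -2.03 (SK-MEL-147). All of these values passed the threshold. The median of the 8 genes was -2.84, -3.62 and -1.40 for A549 and -5.79, -4.37 and -1.79 for SK-MEL-147.

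Among the mitotic kinases, PLK1 (Polo-like kinase) drives centrosome maturation and mitotic entry. In A549, PLK1 stood at 179, 186 and 175 CPM in the controls, 4.36, 15.6 and 23.4 with doxorubicin, 7.20, 7.36 and 7.69 with palbociclib, and 35.1, 39.6 and 32.7 with INK128. In SK-MEL-147, PLK1 was at 72.6, 118, 141 and 117 CPM in the controls, 2.36, 1.66, 1.17 and 2.12 with doxorubicin, 3.95, 13.9, 2.00 and 1.53 with palbociclib, and 26.9, 30.9, 19.1 and 23.9 with INK128. Doxorubicin replicate 1 was the lowest A549 library, and only the inducers overlapped in each line. Aurora A, AURKA, acts at the spindle poles. A549 libraries held AURKA at 179.7, 174 and 168 CPM without drug, 17.4, 29.5 and 31.5 after doxorubicin, 21.1, 26.9 and 18.7 after palbociclib, and 32.3, 30.7 and 20.1 under INK128. For SK-MEL-147, AURKA values were 95.8, 138, 162 and 152 CPM without drug, 6.91, 7.07, 7.20 and 6.09 after doxorubicin, 13.4, 22, 12.2 and 7.51 after palbociclib, and 31.6, 20.7, 17.1 and 18.8 under INK128. In A549 the ranges of all 3 drugs overlapped each other, and in SK-MEL-147 INK128 overlapped palbociclib and not doxorubicin. Aurora B, AURKB, corrects faulty attachments as part of the chromosomal passenger complex. AURKB read 89.8, 89.1 and 77.8 CPM in A549 controls, 3.23, 7.73 and 10.5 after doxorubicin, 3.43, 3.04 and 2.78 after palbociclib, and 34.6, 31.9 and 22.3 under INK128. SK-MEL-147 gave AURKB at 50.7, 67.9, 84.2 and 69.2 CPM in controls, 0.388, 0.636, 0.167 and 0.101 after doxorubicin, 1.76, 6.21, 0.616 and 0.376 after palbociclib, and 37.7, 16.4, 22.3 and 22.2 under INK128. INK128 was between the controls and the inducers in both lines, and doxorubicin left under 1 CPM in SK-MEL-147. BUB1 is a kinase of the spindle checkpoint. In A549, BUB1 stood at 126, 129 and 113 CPM in the controls, 4.90, 11.9 and 16.5 with doxorubicin, 6.41, 7.10 and 6.66 with palbociclib, and 32.4, 41 and 29.2 with INK128. In SK-MEL-147, BUB1 was at 87.2, 116, 149 and 149 CPM in the controls, 0.705, 1.48, 1.24 and 0.976 with doxorubicin, 3.52, 12.2, 2.73 and 1.47 with palbociclib, and 21.0, 20.3, 25.3 and 23.6 with INK128. The SK-MEL-147 inducers overlapped through palbociclib replicate 4, which came within the doxorubicin range. TTK (MPS1) starts the checkpoint signal. A549 libraries held TTK at 54.3, 54.5 and 49.6 CPM without drug, 3.39, 4.16 and 7.34 after doxorubicin, 3.91, 3.95 and 2.94 after palbociclib, and 25.9, 21.5 and 20.1 under INK128. For SK-MEL-147, TTK values were 51.6, 71.0, 74.5 and 86.9 CPM without drug, 1.23, 1.55, 0.669 and 1.04 after doxorubicin, 3.95, 11.0, 3.35 and 0.970 after palbociclib, and 29.2, 18.2, 19.7 and 22.8 under INK128. Both inducers were apart from INK128 and from control in each line.

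AURKA fell by 2.65 ± 0.25 on the log2 scale (adjusted p = 5.32e-05) with INK128 in A549, the largest change of the 50 genes there, and fell by 2.63 ± 0.27 on the log2 scale (adjusted p = 7.73e-07) in SK-MEL-147. With doxorubicin it fell by 2.73 ± 0.25 on the log2 scale (adjusted p = 1.13e-05) in A549. AURKB fell by 7.71 ± 0.72 on the log2 scale (adjusted p = 1.4e-07) with doxorubicin in SK-MEL-147 and fell by 3.58 ± 0.34 in A549. PLK1 fell by 4.60 ± 0.45 on the log2 scale (adjusted p = 1.61e-05) with palbociclib in A549. TTK fell by 1.23 ± 0.23 on the log2 scale (adjusted p = 0.00174) with INK128 in A549, and BUB1 fell by 2.48 ± 0.41 on the log2 scale (adjusted p = 8.94e-05) in SK-MEL-147. The remaining 3 kinases fell in all 6 comparisons. PLK4, which controls centriole duplication, had values of -3.85, -4.04 and -1.14 (A549) and -5.57, -4.54 and -1.96 (SK-MEL-147). For BUB1B (BUBR1), the checkpoint partner of BUB1, they were -3.31, -3.88 and -1.51 (A549) and -5.97, -3.97 and -1.91 (SK-MEL-147), although a read-through gene, BUB1B-PAK6, overlaps it on the same strand. For NEK2, which separates the centrosomes, they were -3.60, -4.31 and -1.47 (A549) and -8.61, -4.71 and -1.79 (SK-MEL-147). The median of the 8 kinases was -3.52, -4.11 and -1.52 for A549 and -5.98, -4.50 and -1.93 for SK-MEL-147.

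All 10 kinetochore and centromere genes fell in each of the 6 comparisons with control. CENPA is the histone H3 variant that marks the centromere. A549 libraries held CENPA at 35.0, 37.7 and 28.2 CPM without drug, 2.14, 3.48 and 4.52 after doxorubicin, 2.67, 2.63 and 1.52 after palbociclib, and 13.4, 8.75 and 6.34 under INK128. For SK-MEL-147, CENPA values were 20.3, 30.2, 31.6 and 35.8 CPM without drug, 0.282, 0.141, 0.435 and 0.504 after doxorubicin, 1.08, 4.65, 0.385 and 0.438 after palbociclib, and 9.06, 5.50, 5.84 and 7.05 under INK128. Palbociclib replicate 2 was the only library of its group above 1.08 CPM. CENPE is a kinesin that carries chromosomes to the spindle equator. CENPE read 70.2, 59.6 and 49.6 CPM in A549 controls, 5.26, 7.27 and 8.98 after doxorubicin, 5.14, 6.51 and 4.79 after palbociclib, and 23.3, 20.4 and 15.4 under INK128. SK-MEL-147 gave CENPE at 117, 129, 135 and 163 CPM in controls, 2.05, 2.90, 2.78 and 3.09 after doxorubicin, 6.17, 15.8, 5.05 and 5.13 after palbociclib, and 39.4, 22.3, 32.9 and 45.8 under INK128. In SK-MEL-147 no groups overlapped at all. CENPF binds the outer kinetochore and microtubules. In A549, CENPF stood at 258, 221 and 238 CPM in the controls, 9.89, 22 and 32.6 with doxorubicin, 12.8, 16.2 and 16.1 with palbociclib, and 114, 140.2 and 115 with INK128. In SK-MEL-147, CENPF was at 185, 188, 240.3 and 270.2 CPM in the controls, 5.36, 7.88, 3.35 and 4.57 with doxorubicin, 14.2, 41.3, 9.28 and 7.86 with palbociclib, and 97.5, 76.3, 83.5 and 89.6 with INK128. Each INK128 sample was above each inducer sample and below each control in both lines. NDC80 is the microtubule-binding subunit of the kinetochore. A549 libraries held NDC80 at 22.1, 20.9 and 19.3 CPM without drug, 1.87, 2.19 and 3.31 after doxorubicin, 2.61, 1.42 and 1.16 after palbociclib, and 10.2, 8.38 and 6.34 under INK128. For SK-MEL-147, NDC80 values were 42.9, 56.2, 70.8 and 75.6 CPM without drug, 0.459, 0.565, 0.535 and 0.606 after doxorubicin, 1.54, 8.03, 1.04 and 0.344 after palbociclib, and 22.9, 9.80, 16.8 and 15.8 under INK128. Controls of SK-MEL-147 were above those of A549, and palbociclib replicate 2 was far above the rest of its group. BIRC5 (survivin) is a subunit of the chromosomal passenger complex. BIRC5 read 159.5, 185 and 158 CPM in A549 controls, 4.24, 15.3 and 21.3 after doxorubicin, 4.63, 6.52 and 5.72 after palbociclib, and 41.8, 50.8 and 33.7 under INK128. SK-MEL-147 gave BIRC5 at 120.5, 169.8, 204 and 187 CPM in controls, 0.635, 0.742, 0.435 and 0.504 after doxorubicin, 3.41, 15.7, 1.31 and 0.657 after palbociclib, and 37.4, 31.5, 41 and 37.4 under INK128. Doxorubicin left less than 1 CPM in every SK-MEL-147 library and more than 4 CPM in every A549 library.

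BIRC5 fell by 8.19 ± 0.77 on the log2 scale (adjusted p = 1.48e-07) with doxorubicin in SK-MEL-147, against -3.61 ± 0.44 in A549. CENPF fell by 0.96 ± 0.31 on the log2 scale (adjusted p = 0.0282) with INK128 in A549 and fell by 1.35 ± 0.38 on the log2 scale (adjusted p = 0.00616) in SK-MEL-147. CENPA fell by 6.41 ± 0.64 on the log2 scale (adjusted p = 2.74e-07) with doxorubicin in SK-MEL-147. CENPE fell by 3.44 ± 0.24 on the log2 scale (adjusted p = 1.8e-06) with palbociclib in A549. NDC80 fell by 4.59 ± 0.60 on the log2 scale (adjusted p = 6.21e-06) with palbociclib in SK-MEL-147, where the value was -5.97 without replicate 2. The other subunits of the NDC80 complex were NUF2, at -3.71, -4.25 and -1.14 (A549) and -7.81, -4.83 and -1.68 (SK-MEL-147), and SPC25, at -3.39, -4.90 and -1.53 (A549) and -8.77, -5.88 and -1.71 (SK-MEL-147). SPC25 had the largest change of the 50 genes with palbociclib in SK-MEL-147, and came after MKI67 (-7.48) without replicate 2, at -7.26. SKA1, of the complex that stabilises attachments, was at -3.84, -4.85 and -1.92 (A549) and -7.31, -5.56 and -2.29 (SK-MEL-147). MAD2L1 (MAD2), the checkpoint protein that binds CDC20, was at -2.76, -3.00 and -1.38 (A549) and -4.36, -3.60 and -2.12 (SK-MEL-147), and ERCC6L (PICH), a DNA translocase on anaphase bridges, at -4.17, -4.96 and -1.83 (A549) and -5.95, -4.54 and -2.39 (SK-MEL-147). The median of the 10 genes was -3.43, -4.12 and -1.56 for A549 and -6.61, -4.56 and -2.03 for SK-MEL-147.

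The 3 genes around the anaphase-promoting complex were CDC20, UBE2C and PTTG1. CDC20 is its activator in mitosis. A549 libraries held CDC20 at 170.4, 166 and 126 CPM without drug, 3.08, 12.6 and 17.5 after doxorubicin, 5.79, 7.83 and 5.17 after palbociclib, and 32.8, 38.9 and 25.2 under INK128. For SK-MEL-147, CDC20 values were 139.8, 225, 263 and 228 CPM without drug, 1.83, 2.05, 1.57 and 1.92 after doxorubicin, 10.3, 22.3, 9.78 and 2.47 after palbociclib, and 40.2, 42.8, 27.7 and 31.3 under INK128. The SK-MEL-147 groups were all apart, so palbociclib lay above doxorubicin in every library. UBE2C is the ubiquitin-conjugating enzyme of the complex. UBE2C read 115, 109.8 and 92.2 CPM in A549 controls, 6.58, 9.89 and 13.7 after doxorubicin, 8.91, 5.15 and 3.43 after palbociclib, and 44.5, 34.6 and 25.3 under INK128. SK-MEL-147 gave UBE2C at 117, 147, 194 and 185 CPM in controls, 12.9, 10.5, 21.5 and 10.8 after doxorubicin, 23.0, 28.4, 15.0 and 7.29 after palbociclib, and 102, 52.4, 54.2 and 48.9 under INK128. The inducers overlapped in both lines, and INK128 replicate 1 stood above its group in SK-MEL-147. PTTG1 (securin) is the inhibitor of separase that the complex destroys. In A549, PTTG1 stood at 89.8, 92.1 and 82 CPM in the controls, 10.8, 9.70 and 13.6 with doxorubicin, 9.87, 5.88 and 4.88 with palbociclib, and 33.1, 25.5 and 19.0 with INK128. In SK-MEL-147, PTTG1 was at 90.3, 112, 139 and 139.9 CPM in the controls, 11.3, 8.48, 7.63 and 7.33 with doxorubicin, 11.7, 14.6, 10.2 and 9.54 with palbociclib, and 49.1, 30.9, 29.9 and 30.5 with INK128. INK128 replicate 1 was again the highest of its group, and the inducers overlapped in both lines.

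CDC20 fell by 3.80 ± 0.48 on the log2 scale (adjusted p = 9.6e-05) with doxorubicin in A549 and fell by 6.86 ± 0.50 on the log2 scale (adjusted p = 9.27e-09) in SK-MEL-147. UBE2C fell by 3.39 ± 0.36 on the log2 scale (adjusted p = 2.97e-05) with doxorubicin in A549 and fell by 3.53 ± 0.37 in SK-MEL-147; the difference between the lines did not pass the threshold. PTTG1 fell by 3.68 ± 0.28 on the log2 scale (adjusted p = 3.1e-06) with palbociclib in A549 and fell by 3.39 ± 0.21 on the log2 scale (adjusted p = 5.58e-09) in SK-MEL-147. INK128 lowered CDC20 by 2.25 ± 0.45 in A549 and 2.59 ± 0.39 in SK-MEL-147 on the same scale. The median of the 3 genes was -3.39, -4.19 and -1.77 for A549 and -3.79, -3.39 and -1.78 for SK-MEL-147, so the doxorubicin median in SK-MEL-147 was smaller than that of the 50 genes.

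Kinesins move along microtubules to shape the spindle. KIF11 (Eg5) pushes the spindle poles apart. A549 libraries held KIF11 at 146, 151 and 158 CPM without drug, 7.71, 14.1 and 20.3 after doxorubicin, 10.5, 10.6 and 9.54 after palbociclib, and 61.8, 66.5 and 55.7 under INK128. For SK-MEL-147, KIF11 values were 147, 193, 188 and 208 CPM without drug, 3.95, 3.82, 3.65 and 3.67 after doxorubicin, 7.17, 22.9, 4.66 and 3.00 after palbociclib, and 80.5, 60.6, 72.1 and 70.3 under INK128. The 4 doxorubicin libraries of SK-MEL-147 agreed closely, between 3.65 and 3.95 CPM. KIF20A acts in the central spindle during cytokinesis. KIF20A read 100.1, 85.9 and 79.2 CPM in A549 controls, 4.01, 11.5 and 18.2 after doxorubicin, 4.63, 3.65 and 3.72 after palbociclib, and 34.8, 38.9 and 27.9 under INK128. SK-MEL-147 gave KIF20A at 126, 159, 207 and 198 CPM in controls, 0.811, 0.565, 0.301 and 0.370 after doxorubicin, 3.80, 23.5, 1.23 and 1.00 after palbociclib, and 43.9, 35.9, 32.5 and 34 under INK128. No SK-MEL-147 groups overlapped, and palbociclib replicate 2 lay closer to INK128 than to its own group. KIF23 (MKLP1) is a subunit of centralspindlin. In A549, KIF23 stood at 201, 189.9 and 181 CPM in the controls, 15.6, 26.2 and 35.7 with doxorubicin, 17.4, 17.7 and 13.9 with palbociclib, and 65.8, 73.6 and 63.0 with INK128. In SK-MEL-147, KIF23 was at 129.9, 156, 173 and 168 CPM in the controls, 5.40, 6.68, 5.22 and 7.47 with doxorubicin, 10.3, 34, 10.2 and 8.07 with palbociclib, and 57.2, 40.7, 54.8 and 55.6 with INK128. Again no SK-MEL-147 groups overlapped, and INK128 replicate 2 was the lowest of its group.

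KIF20A fell by 8.39 ± 0.88 on the log2 scale (adjusted p = 4.86e-07) with doxorubicin in SK-MEL-147 and fell by 2.97 ± 0.40 in A549. KIF11 fell by 3.89 ± 0.28 on the log2 scale (adjusted p = 2.16e-06) with palbociclib in A549, and KIF23 fell by 3.54 ± 0.25 on the log2 scale (adjusted p = 2.15e-06). With palbociclib in SK-MEL-147, KIF20A fell by 4.61 ± 0.70 on the log2 scale (adjusted p = 2.86e-05) and the value was -6.40 without replicate 2. KIF15, which backs up KIF11, was at -3.57, -4.51 and -0.84 (A549) and -6.45, -4.41 and -1.48 (SK-MEL-147). KIF18B, which shortens astral microtubules, was at -4.02, -5.13 and -1.59 (A549) and -8.32, -5.31 and -1.63 (SK-MEL-147). KIF2C (MCAK), a microtubule depolymerase at the centromere, was at -3.50, -4.78 and -1.46 (A549) and -8.36, -4.77 and -1.97 (SK-MEL-147), and the chromosome motor KIF4A at -3.24, -4.73 and -1.39 (A549) and -7.64, -4.79 and -1.91 (SK-MEL-147). The median of the 7 motors was -3.43, -4.51 and -1.39 for A549 and -7.64, -4.61 and -1.63 for SK-MEL-147.

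Spindle proteins showed the deepest median in SK-MEL-147 with doxorubicin. TPX2 activates Aurora A and nucleates spindle microtubules. TPX2 read 275, 277 and 276 CPM in A549 controls, 14.2, 41.9 and 57.0 after doxorubicin, 16.5, 27.5 and 23.7 after palbociclib, and 74.2, 108 and 83.4 under INK128. SK-MEL-147 gave TPX2 at 312, 408, 495 and 475 CPM in controls, 15.3, 17.7, 19.9 and 18.4 after doxorubicin, 31.1, 64.8, 37.3 and 22.8 after palbociclib, and 129, 112, 126 and 113 under INK128. No SK-MEL-147 groups overlapped, while in A549 doxorubicin replicate 1 was the lowest library and the inducers overlapped. HMMR links the spindle poles to microtubules. In A549, HMMR stood at 108, 98.7 and 102 CPM in the controls, 5.06, 10.7 and 17.1 with doxorubicin, 4.66, 6.54 and 4.33 with palbociclib, and 39.6, 34.7 and 28.6 with INK128. In SK-MEL-147, HMMR was at 53.5, 75.6, 70.1 and 83.8 CPM in the controls, 0.0705, 0.318, 0 and 0.101 with doxorubicin, 1.22, 6.04, 0.154 and 0.0626 with palbociclib, and 35.9, 25.9, 15.4 and 20.9 with INK128. Doxorubicin left almost nothing in SK-MEL-147, with no read at all in replicate 3, while every A549 doxorubicin library stayed above 5 CPM. TPX2 fell by 4.57 ± 0.26 on the log2 scale (adjusted p = 1.57e-09) with doxorubicin in SK-MEL-147, and HMMR fell by 9.15 ± 0.98 on the log2 scale (adjusted p = 5.89e-07). In A549 the same drug gave -2.87 ± 0.40 for TPX2 and -3.23 ± 0.35 for HMMR. GTSE1, which stabilises microtubules, was at -3.44, -4.83 and -1.79 (A549) and -8.90, -5.17 and -1.90 (SK-MEL-147). DEPDC1 was at -3.48, -4.49 and -2.05 (A549) and -9.12, -4.76 and -2.27 (SK-MEL-147), TROAP at -3.63, -4.21 and -1.10 (A549) and -8.44, -5.06 and -1.41 (SK-MEL-147) and PIMREG at -3.46, -4.49 and -1.64 (A549) and -8.77, -5.10 and -1.51 (SK-MEL-147). All of these values passed the threshold, and the median of the 6 genes was -3.45, -4.39 and -1.64 for A549 and -8.83, -5.08 and -1.67 for SK-MEL-147.

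Cytokinesis genes differed in how far they fell. PRC1 bundles the microtubules of the central spindle. A549 libraries held PRC1 at 7.98, 6.92 and 6.93 CPM without drug, 0.818, 0.83 and 1.5 after doxorubicin, 0.823, 0.583 and 0.453 after palbociclib, and 4.32, 3.02 and 2.78 under INK128. For SK-MEL-147, PRC1 values were 4.93, 5.33, 8.22 and 7.20 CPM without drug, 0.106, 0, 0.0669 and 0 after doxorubicin, 0.251, 0.332, 0.154 and 0.0626 after palbociclib, and 3.90, 1.95, 2.49 and 2.50 under INK128. The level was the lowest of the 50 genes in each line, doxorubicin left 5 reads over the 4 SK-MEL-147 libraries, and another annotated gene overlaps PRC1 on the same strand, so reads shared with it may be missing. ANLN (anillin) scaffolds the contractile ring. ANLN read 242, 235 and 222 CPM in A549 controls, 8.25, 23.0 and 34.2 after doxorubicin, 9.98, 11.8 and 10.1 after palbociclib, and 74.9, 89.8 and 67.4 under INK128. SK-MEL-147 gave ANLN at 249.9, 318, 396 and 441 CPM in controls, 10.1, 6.18, 11.9 and 12.9 after doxorubicin, 14.6, 41.5, 18.5 and 12.5 after palbociclib, and 75.3, 63.7, 90.0 and 94.9 under INK128. Every drugged sample was below every control. ECT2 activates RhoA at the division plane. In A549, ECT2 stood at 267, 298 and 284 CPM in the controls, 59.7, 61.7 and 77.3 with doxorubicin, 73.4, 60.8 and 64.0 with palbociclib, and 101, 96.1 and 93.4 with INK128. In SK-MEL-147, ECT2 was at 156, 231, 189 and 212 CPM in the controls, 22.2, 23.9, 18.8 and 20.1 with doxorubicin, 30, 42.7, 24.5 and 22.9 with palbociclib, and 52.0, 59.8, 57.7 and 65.3 with INK128. The inducers overlapped in each line and lay below INK128. ANLN fell by 4.45 ± 0.40 on the log2 scale (adjusted p = 9.23e-06) with palbociclib in A549 and fell by 5.09 ± 0.37 on the log2 scale (adjusted p = 8.61e-09) with doxorubicin in SK-MEL-147. ECT2 fell by 2.10 ± 0.13 on the log2 scale (adjusted p = 1.79e-06) with doxorubicin in A549 and fell by 3.21 ± 0.18 on the log2 scale (adjusted p = 1.5e-09) in SK-MEL-147.

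IQGAP3, a scaffold of the actin and Ras pathways in dividing cells, separated INK128 from the inducers. A549 libraries held IQGAP3 at 55.8, 52.8 and 47.4 CPM without drug, 6.73, 11.4 and 16.8 after doxorubicin, 5.55, 5.36 and 4.95 after palbociclib, and 47.3, 56.1 and 47.0 under INK128. For SK-MEL-147, IQGAP3 values were 182, 139.9, 211 and 196 CPM without drug, 2.43, 3.25, 1.2 and 2.25 after doxorubicin, 7.93, 24.8, 1.66 and 1.41 after palbociclib, and 211, 111, 112 and 144 under INK128. With INK128 the ranges overlapped those of control in both lines, while both inducers were below all other samples. IQGAP3 fell by 3.30 ± 0.26 on the log2 scale (adjusted p = 3.97e-06) with palbociclib in A549 and fell by 6.32 ± 0.72 on the log2 scale (adjusted p = 1.25e-06) with doxorubicin in SK-MEL-147. With INK128 the difference was -0.05 ± 0.24 (adjusted p = 0.881) in A549 and -0.33 ± 0.56 (adjusted p = 0.623) in SK-MEL-147, neither past the threshold. The mean under INK128 was 96.4% of control in A549 and 79.3% in SK-MEL-147, the highest of the 50 genes in each. In A549, CDC25B, KIF15, CDC25C and CENPF were the other genes above 50% of control with INK128, and in SK-MEL-147 there was no other.

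MKI67 and TOP2A belong to mitotic chromosomes. MKI67 (Ki-67) coats them and is the usual histological marker of proliferation. MKI67 read 462, 430.0 and 461 CPM in A549 controls, 9.65, 35.9 and 56.5 after doxorubicin, 9.91, 15.6 and 17.9 after palbociclib, and 103, 173 and 126 under INK128. SK-MEL-147 gave MKI67 at 476, 507, 598 and 598 CPM in controls, 0.494, 2.12, 0.10 and 0.303 after doxorubicin, 8.75, 47.6, 0.231 and 0.0313 after palbociclib, and 132, 136, 142 and 151 under INK128. The SK-MEL-147 palbociclib libraries ranged from 0.0313 to 47.6 CPM and enclosed the doxorubicin values. TOP2A, which untangles sister chromatids, is also the enzyme that doxorubicin poisons. In A549, TOP2A stood at 895, 808 and 839 CPM in the controls, 26.3, 96.6 and 149 with doxorubicin, 30.5, 49.7 and 45.4 with palbociclib, and 325, 416 and 353 with INK128. In SK-MEL-147, TOP2A was at 323, 435, 539 and 618 CPM in the controls, 2.57, 4.13, 1.27 and 2.09 with doxorubicin, 13.1, 58.8, 4.81 and 2.32 with palbociclib, and 149.8, 142, 182 and 176 with INK128. In both lines INK128 was apart from control and from the inducers. MKI67 fell by 9.51 ± 1.36 on the log2 scale (adjusted p = 1.41e-05) with doxorubicin in SK-MEL-147, the largest change in any comparison with control, and fell by 3.73 ± 0.51 on the log2 scale (adjusted p = 0.000158) in A549. With palbociclib it fell by 5.31 ± 1.08 on the log2 scale (adjusted p = 0.000483) in SK-MEL-147 and the value was -7.48 without replicate 2. With INK128 MKI67 fell by 1.75 ± 0.47 on the log2 scale (adjusted p = 0.0117) in A549, and the SK-MEL-147 value of -1.96 ± 0.92 (adjusted p = 0.0783) did not pass. All 4 INK128 libraries there, at 132 to 151 CPM, were below all 4 controls, at 476 to 598 CPM. The spread used in that test was estimated over all 4 groups of the line, the widely ranging palbociclib libraries included. The SK-MEL-147 value passed under 4 of 15 alternatives, the replicate number as a block among them (adjusted p = 0.0414). TOP2A fell by 1.22 ± 0.44 on the log2 scale (adjusted p = 0.0455) with INK128 in A549 and fell by 1.56 ± 0.62 on the log2 scale (adjusted p = 0.041) in SK-MEL-147, and each call was lost under 9 alternatives, of 16 and 15.

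FOXM1 and MYBL2 are the activators of this program and are themselves transcribed with it. A549 libraries held FOXM1 at 127, 143 and 127 CPM without drug, 3.62, 11.7 and 12.9 after doxorubicin, 5.00, 6.25 and 6.18 after palbociclib, and 33.6, 45.1 and 33.4 under INK128. For SK-MEL-147, FOXM1 values were 218, 265, 342 and 325 CPM without drug, 2.40, 3.00, 2.48 and 2.86 after doxorubicin, 7.10, 28.4, 5.24 and 4.32 after palbociclib, and 74.7, 69.8, 78.7 and 72.1 under INK128. No SK-MEL-147 groups overlapped. MYBL2 read 88.7, 112 and 91.0 CPM in A549 controls, 2.37, 6.54 and 9.36 after doxorubicin, 1.99, 3.07 and 2.55 after palbociclib, and 18.6, 29.7 and 19.2 under INK128. SK-MEL-147 gave MYBL2 at 115, 151, 191 and 161 CPM in controls, 0.705, 1.27, 0.736 and 0.807 after doxorubicin, 3.05, 11.2, 1.27 and 0.720 after palbociclib, and 27.1, 16.6, 34.4 and 29.6 under INK128. Only the inducers overlapped within a line. FOXM1 fell by 3.81 ± 0.37 on the log2 scale (adjusted p = 1.73e-05) with doxorubicin in A549 and fell by 6.74 ± 0.51 on the log2 scale (adjusted p = 1.55e-08) in SK-MEL-147. MYBL2 fell by 5.24 ± 0.43 on the log2 scale (adjusted p = 4.77e-06) with palbociclib in A549, the largest change of the 50 genes there, and fell by 7.45 ± 0.67 on the log2 scale (adjusted p = 8.24e-08) with doxorubicin in SK-MEL-147. With INK128, MYBL2 fell by 2.52 ± 0.50 on the log2 scale (adjusted p = 0.000433) in SK-MEL-147 and fell by 2.11 ± 0.37 on the log2 scale (adjusted p = 0.00119) in A549. The median of these 2 genes was -3.90, -4.87 and -1.97 for A549 and -7.10, -5.02 and -2.24 for SK-MEL-147.

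The drugs were also set against each other, to ask whether the depth of the fall differed. INK128 left more mitotic transcript than doxorubicin for 48 of 50 genes in A549 (21.2% of all genes called higher, median 1.81) and for 50 of 50 in SK-MEL-147 (24.8%, median 4.73). Against palbociclib it was 48 of 50 in A549 (22% of all genes, median 2.67) and 49 of 50 in SK-MEL-147 (26.8%, median 2.63). The exceptions were AURKA, at 0.08 ± 0.23 (adjusted p = 0.807) against doxorubicin and 0.32 ± 0.23 (adjusted p = 0.3) against palbociclib in A549, and CDC25B, at 0.11 ± 0.17 (adjusted p = 0.647) and -0.07 ± 0.17 (adjusted p = 0.78) there and 0.12 ± 0.18 (adjusted p = 0.579) against palbociclib in SK-MEL-147. These comparisons share their INK128 samples, and their values are set side by side for that reason. Without replicate 1 of every A549 group the counts were 48 and 48 in A549, with medians of 1.47 against doxorubicin and 2.64 against palbociclib. Without palbociclib replicate 2 in SK-MEL-147 the median against palbociclib was 3.69.

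The inducers did not separate clearly from each other. Between palbociclib and doxorubicin in A549, 0 of 50 genes and 0 of all 19550 genes passed the threshold in edgeR (0% called), while 30 of the 50 and 869 of all genes had an unadjusted p under 0.05. DESeq2 called 2 of the 50 lower with palbociclib. The median difference was -0.78. The count depended on doxorubicin replicate 1, the lowest library of its group for 47 genes: without that sample 25 genes were called lower with palbociclib, and without replicate 1 of every group 16, with a median of -1.07. In those fits 0.314% and 0.298% of all genes were called in either direction, and 0.212% with DESeq2. In SK-MEL-147 the direction was opposite, with a median of 2.03, and 1 of 50 genes was called higher with palbociclib, against 0.0432% of all genes. It was CDC20, at 2.58 ± 0.45 (adjusted p = 0.0401), with adjusted p from 9.47e-06 to 0.183 over the alternatives, and 48 of the 50 had an unadjusted p under 0.05. The count in SK-MEL-147 moved with the fit. It was 42 when genes with any count were kept, 38 with DESeq2, 9 with the replicate number as a block, 30 without palbociclib replicate 4, and 0 without palbociclib replicate 1, 2 or 3 or doxorubicin replicate 2, 3 or 4. The share of all genes called in either direction was 0.774% with any count, 2.56% with DESeq2, 1.84% with the block and 0.746% without palbociclib replicate 4. Without palbociclib replicate 2 the median was 0.99. With the block, BUB1, BUB1B, CENPE, CENPF, KIF15, TPX2, DEPDC1 and FOXM1 joined CDC20.

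The lines were then compared by the difference of their responses, SK-MEL-147 minus A549, tested as an interaction over all 8 groups. Doxorubicin at its common dose of 100.0 nM lowered 49 of 50 genes further in SK-MEL-147 (11.3% of the 21761 genes tested were called lower and 8.49% higher), with a median difference of -3.35, against -0.10 over all genes. HMMR differed by -6.04 ± 1.09 (adjusted p = 0.000275), MKI67 by -5.89 ± 1.42 (adjusted p = 0.00386), DEPDC1 by -5.75 ± 1.03 (adjusted p = 0.000247), GTSE1 by -5.57 ± 1.09 (adjusted p = 0.000632) and KIF20A by -5.53 ± 0.98 (adjusted p = 0.000213). UBE2C was the exception, at -0.25 ± 0.52 (adjusted p = 0.817). Leaving out replicate 1 in all groups of A549, 49 genes were again lower, with a median of -3.67. For palbociclib, given at 5 uM and 1 uM, 4 of 50 genes were lower in SK-MEL-147 (10.8% of all genes, with 8.37% higher), with a median of -0.44. They were CDC25B at -0.91 ± 0.25 (adjusted p = 0.0125), CDKN3 at -1.60 ± 0.45 (adjusted p = 0.0132), ECT2 at -0.75 ± 0.22 (adjusted p = 0.0209) and PRC1 at -1.64 ± 0.56 (adjusted p = 0.0416). That count depended on single libraries. It was 27, with a median of -1.53, without SK-MEL-147 palbociclib replicate 2, and 1 without replicate 1 of every A549 group, without SK-MEL-147 control replicate 3 or without its replicate 4. It was 2 without A549 control replicate 1, A549 palbociclib replicate 1 or SK-MEL-147 control replicate 2. In the fit with 27, 18.4% of all genes were called in either direction. The share was 17.9%, 17.4% and 17.0% in the fits with 1, and 15.7%, 17.1% and 17.6% in those with 2, in the order named. For INK128, given at 200.0 nM and 100.0 nM, 0 of 50 genes differed in edgeR or in DESeq2 (5.42% of all genes were lower and 6.51% higher), 3 had an unadjusted p under 0.05, and the median was -0.32. Scaling by library size alone moved the median of all genes by 0.16 for doxorubicin and 0.19 for palbociclib.

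Untreated cells of the lines differed in few of these genes. Relative to A549, 7 of 50 genes were higher in SK-MEL-147 (33.3% of all genes) and 5 lower (33.4%), with a median difference of 0.25. The 5 most raised were IQGAP3 at 1.67 ± 0.55 (adjusted p = 0.00968), NDC80 at 1.42 ± 0.50 (adjusted p = 0.0149), KIF15 at 1.17 ± 0.36 (adjusted p = 0.00622), CENPE at 1.05 ± 0.29 (adjusted p = 0.00303) and FOXM1 at 0.98 ± 0.41 (adjusted p = 0.038). The 5 lower genes were CDC25B at -1.76 ± 0.18 (adjusted p = 4.25e-09), NEK2 at -1.36 ± 0.45 (adjusted p = 0.0106), PKMYT1 at -0.86 ± 0.30 (adjusted p = 0.0158), CDKN3 at -0.75 ± 0.29 (adjusted p = 0.0278) and ECT2 at -0.66 ± 0.16 (adjusted p = 0.000643). The share of members called was below the share of all genes in both directions. The higher count was 4 without A549 control replicate 3 and 12 in the fit without SK-MEL-147 palbociclib replicate 2, and with the replicate number as a block 4 were higher and 2 lower, without NDC80, FOXM1, NEK2, PKMYT1 and CDKN3. CDC25B thus started lower in SK-MEL-147, at 95.7 ± 16.4 CPM against 294 ± 27.2 CPM (SD, n = 4 and n = 3).

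Other parts of the division machinery were counted from lists of genes outside the 50, which were also chosen with earlier results known. They are to be read against the share of all genes called lower, 19.7% to 21.1% for A549 and 28.7% to 28.9% for SK-MEL-147. All 8 condensin subunits, which compact chromosomes, fell in each of the 6 comparisons with control, with medians of -2.39, -2.71 and -1.21 for A549 and -2.84, -2.67 and -1.45 for SK-MEL-147. NCAPG fell by 7.28 ± 0.79 (adjusted p = 6.57e-07) and NCAPH fell by 6.75 ± 0.59 (adjusted p = 6.05e-08) on the log2 scale with doxorubicin in SK-MEL-147. Other kinetochore and centromere proteins fell in 31, 31 and 26 of 32 tested in A549 and 31, 31 and 30 of 33 in SK-MEL-147 (doxorubicin, palbociclib and INK128), with SKA3 and KNL1 the most lowered by both inducers. Other spindle and cytokinesis proteins fell in 20, 20 and 19 of 22 in A549 and 21, 21 and 20 of 22 in SK-MEL-147. Centrosome genes fell in 9, 9 and 5 of 10 and in 10, 10 and 9 of 10, and STIL, a centriole duplication factor, fell by 3.86 ± 0.22 (adjusted p = 1.37e-09) with doxorubicin in SK-MEL-147. Cohesin and its regulators fell in 12, 12 and 7 of 14 and in 11, 12 and 10 of 14. With the inducers the genes that fell most there were SGO1, ESPL1 (separase) and CDCA5 (sororin), and with INK128 SGO2 and SGO1 in both lines, while MAU2, a cohesin loader, was called higher with INK128 in A549 at 0.62 ± 0.16 (adjusted p = 0.0107) and with each drug in SK-MEL-147.

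The core of the anaphase-promoting complex fell less than the 50 genes. Its summed level was 72.8%, 72.95% and 73.6% of control in A549 with doxorubicin, palbociclib and INK128, and 80.7%, 83.05% and 78.9% in SK-MEL-147. In A549 20.9%, 21.1% and 19.7% of all genes were called lower with doxorubicin, palbociclib and INK128, and in SK-MEL-147 28.9%, 28.7% and 28.9%. Of its 14 genes, A549 showed a fall in 9, 9 and 5 and SK-MEL-147 in 5, 5 and 7, with medians of -0.46, -0.48 and -0.37 for A549 and -0.20, -0.14 and -0.38 for SK-MEL-147. ANAPC1, the scaffold subunit, fell by 1.09 ± 0.25 (adjusted p = 0.00477) with doxorubicin in A549, and ANAPC16 rose by 0.68 ± 0.16 (adjusted p = 0.00122) in SK-MEL-147. Among 4 regulators of the complex, 3 fell in each of the 6 comparisons, and with doxorubicin in SK-MEL-147 the inhibitor FBXO5 (EMI1) fell by 3.96 ± 0.29 (adjusted p = 9.27e-09) and UBE2S fell by 2.58 ± 0.18 (adjusted p = 4.87e-09). DNA replication genes fell in 39, 39 and 32 of 39 in A549 and in 39, 39 and 39 in SK-MEL-147, with medians of -2.50, -2.84 and -1.08 for A549 and -3.19, -2.63 and -1.46 for SK-MEL-147. E2F8 fell by 5.47 ± 0.41 (adjusted p = 2.88e-06) with palbociclib in A549 and MCM10 fell by 8.24 ± 0.75 (adjusted p = 9.38e-08) with doxorubicin in SK-MEL-147. The summed CPM of the 50 mitotic genes divided by that of the replication genes was 1.65 ± 0.155 in A549 controls (SD, n = 3), 0.942 ± 0.14 with doxorubicin, 0.981 ± 0.0495 after palbociclib and 1.2 ± 0.0291 under INK128. In SK-MEL-147 it was 1.61 ± 0.0878 (SD, n = 4), 0.299 ± 0.0307, 0.561 ± 0.29 and 1.25 ± 0.22. The ratio was lower with each drug than in control, with no overlap of ranges in either line. In SK-MEL-147 the palbociclib ratio was 0.983 in replicate 2 and 0.338 to 0.51 in the others, with a mean of 0.42.

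**Figure D5:**
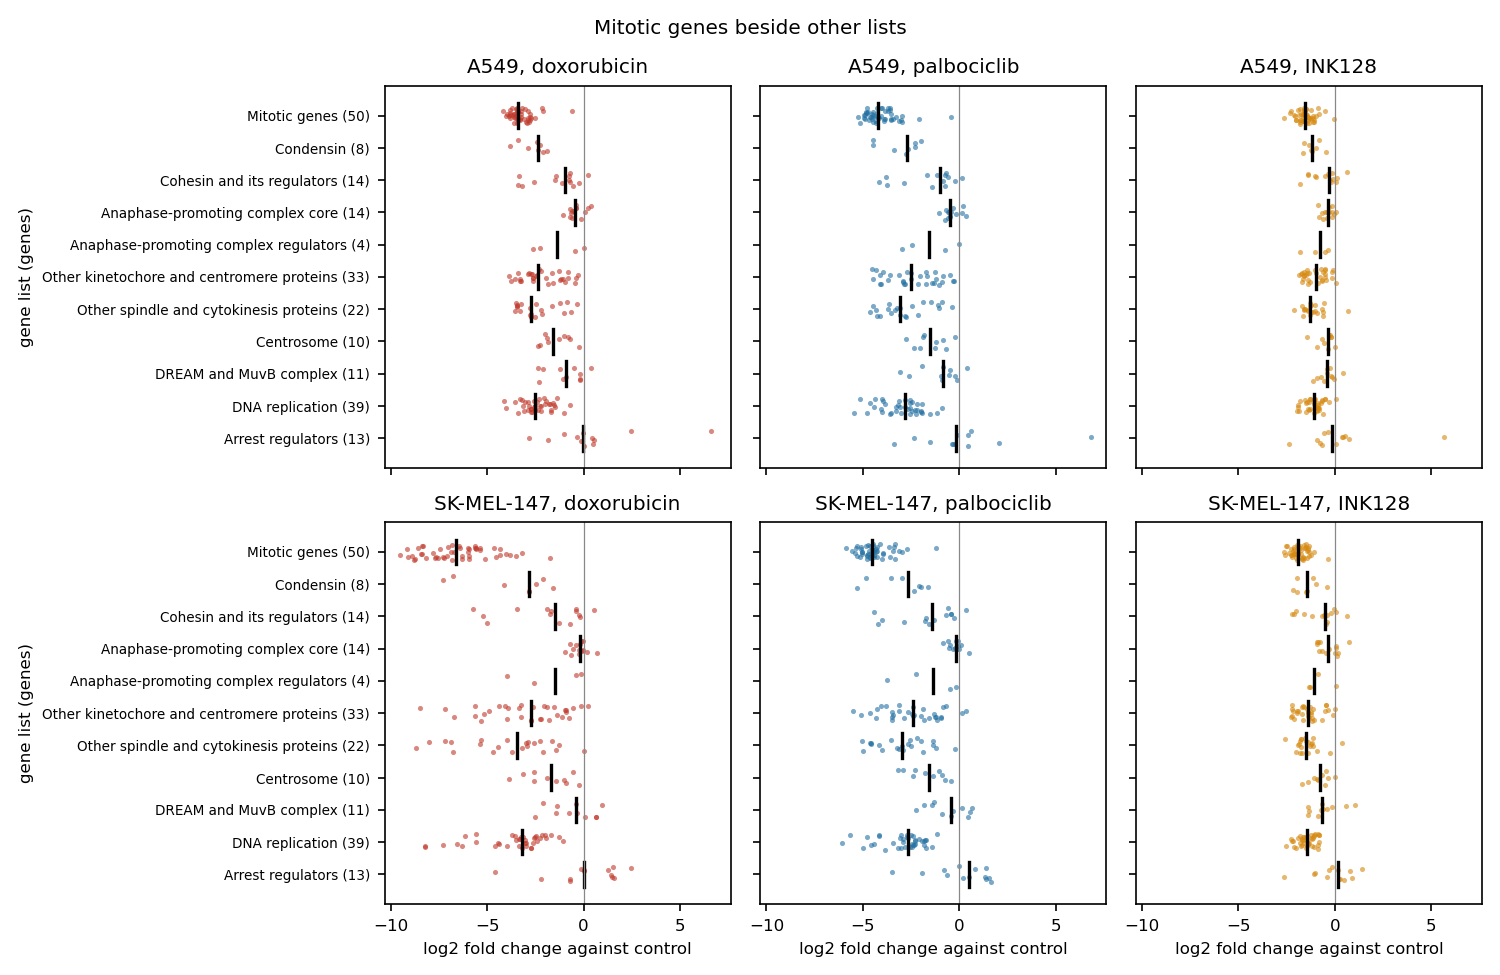
Log2 fold change against control of the 50 genes and of 10 other lists, 1 point per gene and a bar at the median, for each drug and line. The 50 genes have the lowest median in every panel (-3.42, -4.23 and -1.54 for A549 and -6.59, -4.51 and -1.90 for SK-MEL-147). Both the 50 and the other lists were chosen with earlier results of these data known, so this order is no test. The core of the anaphase-promoting complex has medians from -0.48 to -0.14.

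Regulators of the program were read in the same fits. RBL2 (p130), the pocket protein of DREAM in resting cells, rose in all 6 comparisons, by 0.39 ± 0.11 (adjusted p = 0.0149) with doxorubicin, 0.41 ± 0.11 (adjusted p = 0.0111) with palbociclib and 0.44 ± 0.11 (adjusted p = 0.00866) with INK128 in A549. In SK-MEL-147 it rose by 0.65 ± 0.14 (adjusted p = 0.000921), 0.53 ± 0.14 (adjusted p = 0.00436) and 0.60 ± 0.14 (adjusted p = 0.00199). RBL1 (p107) and LIN9, a MuvB subunit, fell: with doxorubicin in SK-MEL-147, RBL1 fell by 2.54 ± 0.18 (adjusted p = 8.79e-09) and LIN9 fell by 2.08 ± 0.16 (adjusted p = 1.7e-08). LIN54, the MuvB subunit that binds the CHR, fell in all 6 comparisons, from -0.55 ± 0.12 (adjusted p = 0.00398) with INK128 in A549 to -1.44 ± 0.17 (adjusted p = 1.6e-06) with palbociclib in SK-MEL-147. E2F4, the E2F of DREAM, fell in 5 of 6, with the largest change at -0.53 ± 0.11 (adjusted p = 0.00243) with palbociclib in A549, and was not called with INK128 in A549 at -0.21 ± 0.11 (adjusted p = 0.149). CDKN1A, which encodes the CDK inhibitor p21, rose by 2.47 ± 0.29 (adjusted p = 6.6e-05) with doxorubicin and 2.08 ± 0.29 (adjusted p = 0.000181) with palbociclib in A549. In SK-MEL-147 it rose by 2.45 ± 0.29 (adjusted p = 1.84e-06) and 1.41 ± 0.28 (adjusted p = 0.000408). With INK128 it stood at -0.56 ± 0.28 (adjusted p = 0.134) in A549 and rose by 1.38 ± 0.28 (adjusted p = 0.000531) in SK-MEL-147, and the difference between the lines was 1.92 ± 0.43 (adjusted p = 0.00399). With doxorubicin, CDC25A, a CDK phosphatase of S phase, fell by 4.58 ± 0.26 (adjusted p = 1.52e-09) in SK-MEL-147 and fell by 2.85 ± 0.24 (adjusted p = 6.81e-06) in A549.

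Markers of other cell types were low or moved with the groups as follows, and their part in the results was not tested. Of 10 epithelial markers, 9 were above 1 CPM in some A549 sample, with a sum of 7678 to 11190.0 CPM in controls and 4003 to 4611 CPM with INK128, while 6 of 10 stayed under 1 CPM in every SK-MEL-147 sample. Of 10 melanocyte markers, MLANA, TYR and GPR143 stayed under 1 CPM in every SK-MEL-147 library, and the sum of the list was 285 to 380 CPM in controls, 293 to 467 with doxorubicin, 190.0 to 279.7 with palbociclib and 552 to 658 with INK128. Leukocyte markers in SK-MEL-147 summed to 75.5 to 286 CPM in controls, 1220.0 to 2034 with doxorubicin, 1009 to 1346 with palbociclib and 377 to 922 with INK128. In that list 8 of 10, the defining PTPRC and CD3E included, stayed under 1 CPM in every sample. Fibroblast markers summed to 17.0 to 24.8 CPM in SK-MEL-147 controls, 63.7 to 135 with doxorubicin and 95.2 to 173 with palbociclib, with 7 of 10 under 1 CPM in every sample.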

How the data were processed

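Polyadenylated RNA was sequenced from 32 libraries of A549 and SK-MEL-147 cells (stranded kit, per the labels' protocols). The authors deposited 1 table of raw counts per gene, with 60728 Ensembl genes and whole numbers throughout. Per the submitters' processing notes, reads were aligned with STAR 2.7.10a to GRCh38.p13 and counted with featureCounts; the annotation and the strand setting of the counting are not given in the sources used here. Reads shared by overlapping genes may be missing. Annotated genes overlap PRC1, BUB1B, CENPA, CCNB2 and KIF15 on the same strand, among others, and further members on the opposite strand.

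Gene IDs were named from a table of names (60370 of 60728) and GENCODE 29 (60659 with it). The A549 libraries 2 and 2-2, both labelled replicate 2, were summed. CPM values used library totals scaled by TMM. Genes were filtered by edgeR's filterByExpr, which left 19550 in A549, 18516 in SK-MEL-147 and 21761 over both, and tested with edgeR 4.0.16's quasi-likelihood F test (R 4.3.3, limma 3.58.1), 2-sided, without a block, with Benjamini-Hochberg adjustment over all genes tested and a threshold of 0.05. The 4 groups of a line shared a fit, and all 8 groups did for differences between lines, 16 comparisons in all. Standard errors are the log2 fold change divided by the square root of F. The model was tested on simulated data with the real library sizes and with the control means in every group. Changes were put only into genes above a minimum level in controls. Libraries that stand apart were not simulated, and the outcome is not reported here.

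The members and the other lists were chosen with earlier results of these data known. Of the 50, 30 genes were fixed for display sample by sample, and each comparison names the 3 largest and 3 smallest changes, uncalled members where 8 or fewer, and members called against the majority; line differences name the 5 largest in each direction, and other lists up to 2 called genes in each direction, beside the regulators, of which 1 is not reported here. Alternatives were DESeq2 1.42.0 (Wald test and size factors), library size alone, genes with any count, only the 2 groups compared, the handling of A549 replicate 2, each replicate left out (56 fits), replicate 1 of every A549 group left out and a replicate block. The whole fit without SK-MEL-147 palbociclib replicate 2 and the summed levels without the libraries that stood apart were added after seeing the data. Replicate numbers paired the samples (correlation of deviations from the group mean over 0.1 in every pair) in all A549 comparisons, with r from 0.164 to 0.815, and in 4 SK-MEL-147 comparisons, but not in doxorubicin against control (lowest r 0.077) or INK128 against palbociclib (0.067). Promoters came from RefSeq on GRCh38.p14, a later patch of the authors' build. Figures were drawn with matplotlib 3.10.9 from tables made with pandas 2.3.3, with 0.1 CPM added before the log2 of the heat map.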

Additional observations from a re-analysis of the deposited data

Results flagged for a closer look

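Samples that stood apart from the rest of their group were looked for in the 4-library groups of SK-MEL-147, over 124 pairs of group and gene, by the gap to the nearest other sample as a share of the group's range (Dixon's 95% critical value). There were 11, and chance gives about 1 in 20. In 7 of them palbociclib replicate 2 was highest: CCNA2 at 16.8 CPM (others 3.66 to 4.88), CENPA at 4.65 (0.385 to 1.08), CENPE at 15.8 (5.05 to 6.17), NDC80 at 8.03 (0.344 to 1.54), KIF20A at 23.5 (1.00 to 3.80), KIF23 at 34 (8.07 to 10.3) and FOXM1 at 28.4 (4.32 to 7.10). INK128 replicate 1 was highest for UBE2C at 102 CPM (others 48.9 to 54.2) and PTTG1 at 49.1 (29.9 to 30.9). INK128 replicate 2 was lowest for KIF23 at 40.7 CPM (54.8 to 57.2), and doxorubicin replicate 4 was highest for CCNB2 at 1.18 CPM (0.882 to 0.919).

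The response differed between the lines, by the interaction test, for 49 members with doxorubicin, with the largest log2 differences (SK-MEL-147 minus A549) at -6.04 for HMMR, -5.89 for MKI67, -5.75 for DEPDC1, -5.57 for GTSE1 and -5.53 for KIF20A. Of all 21761 genes tested, 11.3% were called lower and 8.49% higher for doxorubicin. With palbociclib, where the dose also differed, the response differed for 4 of 50 members: CDC25B at -0.91, CDKN3 at -1.60, ECT2 at -0.75 and PRC1 at -1.64. Among all genes, 10.8% were called lower and 8.37% higher for palbociclib, so the members were called no more often than genes in general.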

How the results depend on the processing

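Single values were followed under the alternatives for every member within a line, but only for the named members in comparisons between lines. Calls gained or lost there by other members are not counted here. Of 9540 such values, 9210 kept their direction and their side of the threshold. Another 172 passed where the main value did not, 139 no longer passed and 19 changed sign. The cause of these changes was not tested. Every sign change was in a value that was not called: IQGAP3 with INK128 against control in A549 (0.061 without replicate 1 of every A549 group); in palbociclib against doxorubicin in A549, ECT2 (0.002 with libraries 2 and 2-2 apart, 0.042 with library 2-2 alone, -0.097 to 0.12 with a replicate left out), CDC25B (-0.005 to 0.317) and PLK4 (-0.45 to 0.12); in INK128 against doxorubicin in A549, AURKA (-0.262 without replicate 1 of every group, -0.158 to 0.268 with a replicate left out) and CDC25B (-0.016 to 0.182); in INK128 against palbociclib in A549, CDC25B (0.009 by library size alone, 0.159 without replicate 1 of every group, -0.213 to 0.078 with a replicate left out); and UBE2C in the line difference for doxorubicin (0.109 with library 2 alone, -0.537 to 0.024 with a replicate left out).

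Of 813 counts and medians under an alternative, 782 stayed within their limits. The limit for a count was a ratio of 1.5. For a median it was the largest SD, among the groups compared, of the samples' own medians over the members. That limit was wide wherever SK-MEL-147 palbociclib took part, with sample medians of 1.95, 3.80, 0.65 and 0.08 log2 CPM. Moves of the members' median when its replicate 2 was left out therefore counted as within limits. The median of palbociclib against control in A549 was -4.02 with library 2-2 alone. Palbociclib against doxorubicin gave 2 members by DESeq2 and 16 without replicate 1 of every group in A549, and in SK-MEL-147 42 with any-count genes, 38 by DESeq2 and 0 with only these groups. The line difference for palbociclib gave 2 by library size alone, 2 with libraries 2 and 2-2 apart and 1 with library 2 alone. In these fits 19.3%, 21.8% and 15.8% of all genes were called in either direction. SK-MEL-147 against A549 controls gave 8 lower with those libraries apart and 12 higher in the fit without SK-MEL-147 palbociclib replicate 2, which was added after seeing the data.

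With the replicate block, 9 members were higher with palbociclib than doxorubicin in SK-MEL-147, 1 was lower in the line difference for INK128, and the controls differed by 4 higher and 2 lower, although no label says that a number shared by the lines marks a common source. Beside the calls given with each comparison (CDC25B, CDK1, MKI67 and those of palbociclib against doxorubicin in SK-MEL-147), the block changed no other call against control or between drugs; among the calls between controls that are named, it ended those of PKMYT1, CDKN3, NEK2, NDC80 and FOXM1.

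Leaving out replicates gave these ranges of counts and medians. Against control in A549, 49 to 50 fell with doxorubicin (-3.80 to -3.05), 49 to 50 with palbociclib (-4.29 to -4.14) and 42 to 49 with INK128 (-1.59 to -1.45). In SK-MEL-147, 50 fell with doxorubicin (-6.69 to -6.50), 50 with palbociclib (-5.44 to -4.18) and 42 to 49 with INK128 (-2.01 to -1.78). INK128 was above doxorubicin for 44 to 48 in A549 (1.47 to 2.15) and 50 in SK-MEL-147 (4.64 to 4.79), and above palbociclib for 48 (2.60 to 2.77) and 48 to 49 (2.32 to 3.69). Palbociclib was below doxorubicin for 0 to 25 in A549 (-1.10 to -0.43) and above it for 0 to 30 in SK-MEL-147 (0.99 to 2.35). Line differences were 44 to 49 for doxorubicin (-3.67 to -3.04), 1 to 27 for palbociclib (-1.53 to -0.05) and 0 for INK128 (-0.43 to -0.20), and controls differed by 4 to 12 higher and 4 to 7 lower (0.08 to 0.29). Depth limits the lowest values: 21 members were under 1 CPM in every SK-MEL-147 doxorubicin sample.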
